A study of Sus scrofa and Bos taurus with 31 samples.

Results

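Adipose-only regions were stretches of the genome with an accessible chromatin peak in both subcutaneous adipose libraries of a species and in no library of the other 7 tissues, which were 3 parts of the brain (cerebellum, cerebral cortex and hypothalamus) and the liver, lung, spleen and skeletal muscle. Peaks of all libraries of a species were merged into regions wherever they shared at least 1 bp, and a region was an adipose region when both adipose libraries had a peak in it. In pig, 2009 of 77367 adipose regions were adipose-only, out of 533944 regions in all, and in cattle 803 of 43218 adipose regions, out of 504914. The measurements were ATAC-seq peak lists, in which the transposase Tn5 cuts accessible DNA and a peak is a stretch with more cuts than its surroundings. Tissue came from 2 pigs, P348 and P350, castrated male Yorkshire littermates of 6 months, and from 2 intact male Line 1 Hereford cattle of 14 months, M08 and M22, which shared a sire. No treatment is named for either group, and the nuclei had been cryopreserved. The 16 pig libraries covered 8 tissues of both pigs, and the 15 cattle libraries lacked the cerebellum of M08, so that each species had 2 adipose libraries against 14 or 13 others. All libraries of an animal share that animal, and close relatedness limits how far 2 animals stand for a breed or species. The pig lists held 99960 to 217308 peaks each and the cattle lists 37204 to 221848. The peak lists carry no read counts, and the read totals that the study gives were not used here, so the values of single peaks have no counting error beside them.

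White fat cells store triglyceride in a single large droplet, take up fatty acids and glucose after meals, and release fatty acids when insulin is low and adrenergic signals are high. Their identity depends on the nuclear receptor PPARG acting with C/EBP and EBF factors, and they secrete hormones such as adiponectin (ADIPOQ) and leptin (LEP). Subcutaneous fat also holds preadipocytes, fibroblasts, vessels, immune cells and nerves. In bulk nuclei, a smaller share of cells of a type and less accessibility per cell cannot be told apart.

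The adiponectin gene was accessible at its start site in adipose alone. In pig, ADIPOQ was 1 of 23 protein-coding genes with a peak within 2 kb of a transcription start site (TSS) in both adipose libraries and in no other library (0.113% of 20394 protein-coding genes), although a set of 23 was not large beside the other tissues. The same rule named 135 genes for cerebellum, 35 for skeletal muscle, 25 for spleen, 22 for liver, 19 for lung, 12 for cerebral cortex and 0 for hypothalamus. The adipose-only regions also had, as nearest genes, PPARG, CEBPA, EBF1 and EBF2, the droplet coat protein gene PLIN1, and ZNF423, GATA2, RBP4, ACACA, CIDEA and PPARGC1A. These regions were weakly enriched and are described here by their peaks, since the rule fixed that they were open in adipose. The 200 bases before the ADIPOQ start site and the central 200 bases of 7 of the regions are printed below on the plus strand of Sscrofa11.1, because the account of fat cell genes rests on them.
ADIPOQ, chr13:124633706-124633905: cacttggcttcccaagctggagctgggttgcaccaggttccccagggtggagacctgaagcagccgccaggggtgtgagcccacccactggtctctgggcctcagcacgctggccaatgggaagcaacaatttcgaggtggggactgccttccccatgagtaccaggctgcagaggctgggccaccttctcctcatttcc
PLIN1, chr7:55235491-55235690: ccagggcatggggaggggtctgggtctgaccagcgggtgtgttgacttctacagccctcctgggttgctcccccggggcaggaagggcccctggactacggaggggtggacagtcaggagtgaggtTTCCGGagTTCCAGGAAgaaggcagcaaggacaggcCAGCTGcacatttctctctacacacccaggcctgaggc
PPARG, chr13:68251268-68251467: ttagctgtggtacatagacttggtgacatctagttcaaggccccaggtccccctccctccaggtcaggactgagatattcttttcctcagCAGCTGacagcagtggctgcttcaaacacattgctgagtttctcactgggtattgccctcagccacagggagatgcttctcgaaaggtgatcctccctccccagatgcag
CEBPA, chr6:43107826-43108025: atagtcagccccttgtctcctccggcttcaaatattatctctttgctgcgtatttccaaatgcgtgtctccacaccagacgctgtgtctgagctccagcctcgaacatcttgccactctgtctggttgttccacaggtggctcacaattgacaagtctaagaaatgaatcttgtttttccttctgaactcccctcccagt
EBF2, chr14:9956630-9956829: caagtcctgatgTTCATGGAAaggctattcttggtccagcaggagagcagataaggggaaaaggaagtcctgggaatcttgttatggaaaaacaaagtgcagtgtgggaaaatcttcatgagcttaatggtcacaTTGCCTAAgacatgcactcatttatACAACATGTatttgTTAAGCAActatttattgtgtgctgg
ZNF423, chr6:34947982-34948181: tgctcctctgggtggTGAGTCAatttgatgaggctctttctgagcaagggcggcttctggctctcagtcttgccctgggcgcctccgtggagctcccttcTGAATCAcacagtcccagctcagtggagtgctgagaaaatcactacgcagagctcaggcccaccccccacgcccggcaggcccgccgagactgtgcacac
CIDEA, chr6:97269453-97269652: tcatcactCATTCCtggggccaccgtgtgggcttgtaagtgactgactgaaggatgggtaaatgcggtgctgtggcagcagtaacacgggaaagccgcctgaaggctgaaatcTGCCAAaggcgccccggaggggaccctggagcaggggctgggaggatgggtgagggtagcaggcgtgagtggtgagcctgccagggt
PPARGC1A, chr8:18236792-18236991: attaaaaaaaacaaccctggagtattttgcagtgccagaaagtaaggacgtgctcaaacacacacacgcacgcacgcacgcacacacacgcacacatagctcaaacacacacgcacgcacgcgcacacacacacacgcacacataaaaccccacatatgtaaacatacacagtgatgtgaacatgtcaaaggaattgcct
Capitals mark matches to 15 short motifs searched on both strands. The sequences were read from the RefSeq copy of Sscrofa11.1. In these windows the matches were TGANTCA of AP-1 near ZNF423, with 7.65% of all TSS-distal regions holding it in their central 200 bases, CCGGAA of ETS (2.44%), TTCNNNGAA of STAT (5.86%) and CAGCTG of the MYOD E-box (14.6%) near PLIN1, the latter also near PPARG, and TTGCNNAA of C/EBP (8.76%), ACANNNTGT of steroid receptors (5.58%) and STAT near EBF2. The CIDEA window held GGAATG of TEAD (10.7%) and TTGGCA of NFI (12.2%). The regions near ZNF423 and CIDEA lay within 2 kb of a start site, so these shares are not of their class. The windows of ADIPOQ, CEBPA and PPARGC1A held none of the 15, which says only that these letters were not in those windows, and the PPARGC1A window was rich in repeated ca and cg dinucleotides.

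The ADIPOQ region lay at chr13:124632768-124635075, covered the start site and reached into a non-coding exon. It was 2308 bp long, and its fold enrichment, the pileup of the peak over the local background as the peak caller gave it, was 3.15 in P348 and 3.12 in P350. The listed q-values were 5.61e-05 and 0.00531, so both animals passed the limit of 0.05 that the study names. The peaks of the 2 pigs shared 292 bp of the region, which spanned the start site, and P348 reached farther downstream and P350 farther upstream. No peak within 2 kb of the start site was listed in the other 14 libraries. Just beyond that limit, upstream peaks had folds of 4.91 and 3.60 in spleen P348 and P350, and 3.32 and 3.18 in lung. Liver P348 had a fold of 3.21 there, so all of these were above the adipose folds. These peaks ended between -2.104 and -2.183 kb from the region centre, with the start site at -0.016 kb. The 2 kb rule thus depends on its limit at ADIPOQ, but the start site itself lay under a peak in adipose alone. The rest of the locus did not follow this pattern. A peak downstream of the start site was present in every library, and the strongest peak of the gene and 10 kb either side had folds of 5.07 and 5.09 in adipose but up to 13.8 in liver P348. The plot of peaks around 6 fat cell genes shows this contrast.

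**Figure D1:**
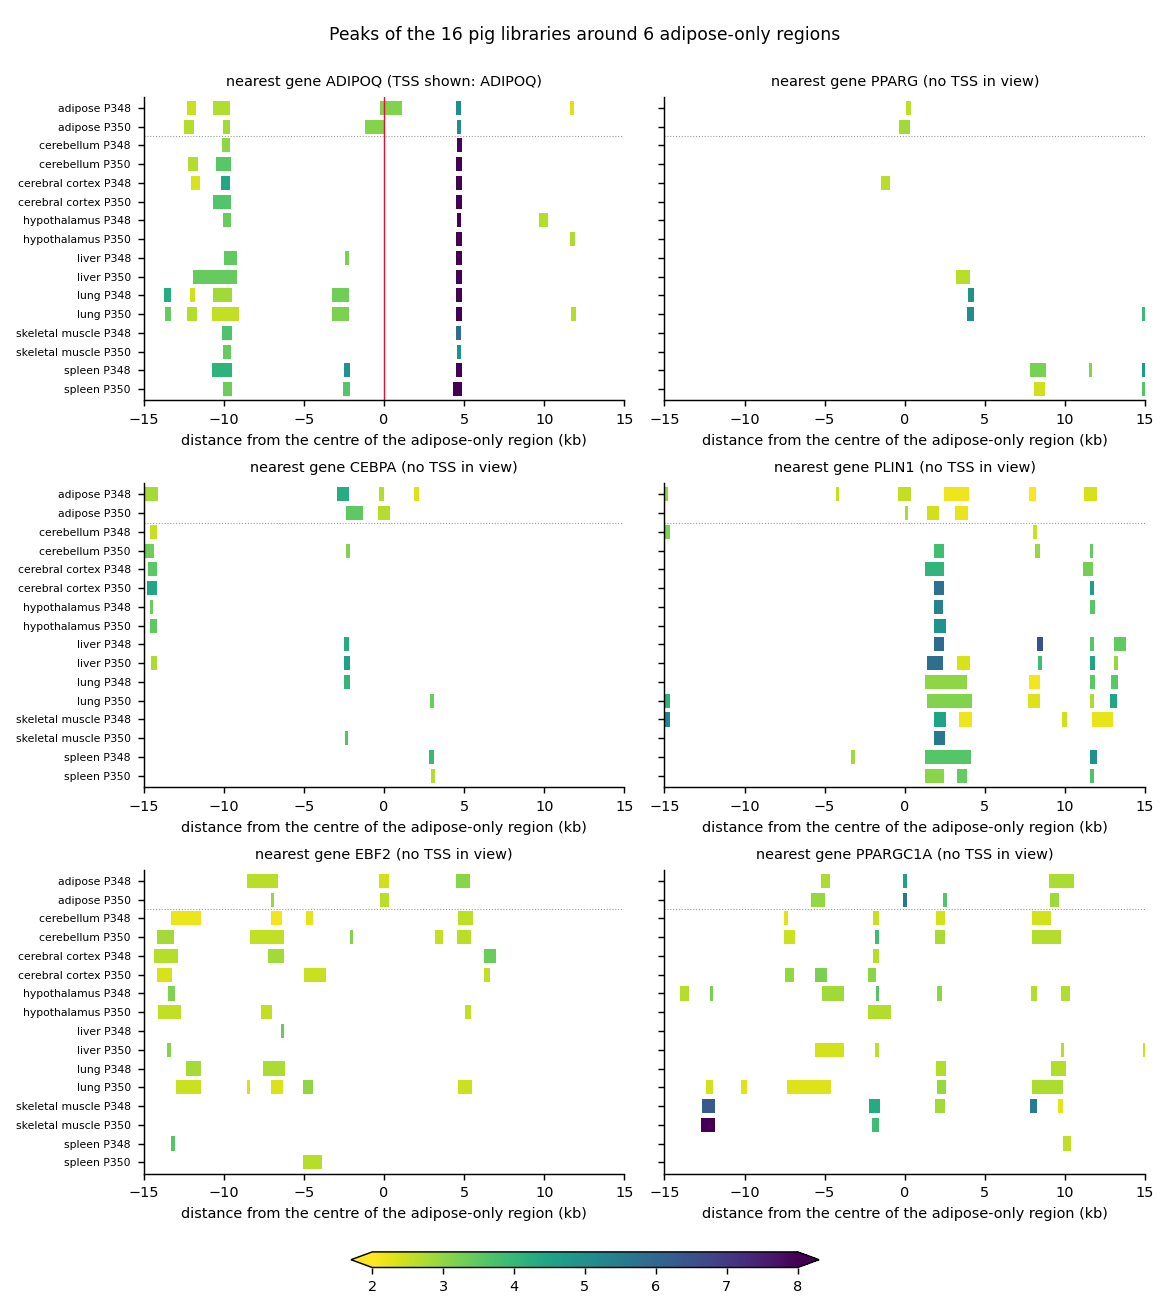
Peaks within 15 kb of the centre of the adipose-only region nearest to 6 genes in the 16 pig libraries, with distance in kb on the horizontal axis, 1 row per library and colour for the fold enrichment of the peak. The ADIPOQ panel has a peak over the start site (red line) in the adipose rows alone, with folds of 3.15 and 3.12, and a peak in all libraries to its right.

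PLIN1 and LEP, the other marker genes of fat cells in the series, did not share the pattern of ADIPOQ. The PLIN1 region (chr7:55235184-55235997, 814 bp) lay between genes, 14800 bp from the nearest PLIN1 start site, with a fold of 2.55 in P348 and of 2.78 in P350, and q-values of 0.00223 and 0.00422. Neither adipose library had a peak within 2 kb of a PLIN1 start site, while both liver and both lung libraries did. LEP had no adipose-only region nearest to it, and 2 of the 14 other libraries, cerebellum P348 and skeletal muscle P350, lacked a start site peak there.

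Of 19 adipogenic transcription factors, 6 had an adipose-only region nearest to them, and 8.79% of all 20394 protein-coding genes had one. The 6 genes were PPARG, CEBPA, EBF1, EBF2, GATA2 and ZNF423. PPARG and C/EBPα drive fat cell differentiation together, EBF1 and EBF2 act with PPARG on fat cell enhancers, ZNF423 commits precursors, and GATA2 holds them back. The PPARG region (chr13:68251000-68251736) lay 49830 bp from a start site, where the fold was 2.60 in P348 and 2.86 in P350. The CEBPA region (chr6:43107560-43108292) lay 21676 bp away, with folds of 2.66 in both animals. The EBF2 region (chr14:9956398-9957061) lay in an intron 70513 bp from the start site, with folds of 2.42 and 2.64. These were low folds with q-values between 0.0202 and 0.0627, close to the limit at which a peak was listed. ZNF423 had the strongest region of the 6 (chr6:34947758-34948405, in an intron 659 bp from a start site), with a fold of 3.14 in P348, 3.43 in P350, and q-values of 1.50e-07 and 1.12e-06. The EBF1 region (chr16:64669208-64669839) lay over a coding exon 309335 bp from the start site, with folds of 2.39 and 3.20. Its q-values were 0.0776 in P348 and 0.00853 in P350. Of the 6 factor regions, those of CEBPA, EBF1 and EBF2 had a q-value over 0.05, the limit that the study names, in at least 1 pig. The GATA2 region (chr13:71942650-71944100) lay 37039 bp away, with folds of 2.88 and 2.84, and 58.4% of it was marked as repeat in the reference. Per 10000 regions private to a tissue, these factors were nearest to 29.9 adipose-only regions, and to 10.4 to 29.1 in the other 7 tissues. The nearest of these rates were those of spleen (29.1), liver (26.3) and skeletal muscle (25.3), and the adipose rate rests on 6 regions.

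Genes of fat storage and synthesis had adipose-only regions nearest to them about as often as all genes (8.79%), at 8.33% and 7.14%. Of 24 genes of lipid droplets, lipolysis and fat uptake, PLIN1 and CIDEA did. CIDEA, which helps droplets fuse, had its region 1042 bp from a start site (chr6:97269397-97269709), with folds of 2.08 and 2.47. Of 14 genes of fat synthesis, ACACA, the enzyme that makes malonyl-CoA, had an adipose-only region nearest to it. The ACACA region lay over a coding exon (chr12:38715265-38716265), with folds of 2.61 and 3.10. Of 10 adipokines, ADIPOQ and RBP4, which carries retinol in blood, had such regions. The RBP4 region lay in an intron of PDE6C (chr14:105027930-105028632), with folds of 2.24 and 2.42 and q-values of 0.0480 in P348 and 0.0594 in P350. Per 10000 private regions, the droplet list had 9.96 in adipose against 3.17 to 50.4 in the other tissues, the synthesis list 4.98 against 0 to 12.2 and the adipokines 9.96 against 1.58 to 25.2. The values of 50.4 and 25.2 are of hypothalamus, which had only 398 private regions. The next highest were 18.5 in spleen for droplets and 5.18 in cerebral cortex for adipokines, while the adipokine rate of adipose rests on 2 regions. None of 16 insulin, adrenergic and other receptors of fat cells had an adipose-only region nearest to it. Of 8 genes of heat production, CIDEA, EBF2 and PPARGC1A did, where CIDEA is also in the droplet list and EBF2 among the adipogenic factors. Per 10000 private regions, the heat production list had 19.9 in adipose against 0 to 50.4 in the other tissues. The value of 50.4 is of hypothalamus, and the next highest was 23.4 in skeletal muscle. The adipose rate of this list rests on 4 regions.

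PPARGC1A, a coactivator of mitochondrial genes, had 2 adipose-only regions, and 1 of them had the highest fold in the weaker animal of the 1995 that lay on placed chromosomes. It lay in an intron 272066 bp from a start site (chr8:18236750-18237033), where the fold reached 4.53 in P348 and 5.63 in P350, at q-values of 6.79e-07 and 8.59e-09. The peaks shared 283 of its 284 bp, and 66.2% of it was marked as repeat. The second PPARGC1A region (chr8:18493264-18493748) had folds of 2.82 and 2.68. The next strongest regions had as nearest genes LOC100621972, C2H5orf30, ENPP1, AOAH, GCC2, ADTRP, CDH2, SCAI and CYB561, where the fold of the weaker animal was 3.80 to 4.33, and 8 regions in all reached a fold of 4 in both pigs. In P348 alone the regions near LOC100621972 (5.17), C2H5orf30 (4.75) and CYB561 (4.69) were above that of PPARGC1A. Repeats made up 70.3% of the region near ENPP1, 65.5% of that near AOAH and 100% of that near SCAI. By the weaker fold, the 10 strongest regions included none nearest to a gene of the 5 fat cell lists.

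Markers of other cells that fat can hold had adipose-only regions nearest to 0 or 1 gene of most lists, counts that lie near the 8.79% of all genes. The genes were EMCN among 10 endothelial markers, MYH11 among 8 of smooth muscle and pericytes, CD3E among 10 of lymphocytes, DSP among 9 of keratinocytes and WT1 among 4 of mesothelium. Of 22 genes of progenitors and fibroblasts, COL6A3, a collagen of the fat matrix, had 2 regions and TWIST2 had 1. Per 10000 private regions, the lymphocyte list had 4.98 in adipose against 0 to 21.2 in the other tissues, and the progenitor and fibroblast list 14.9 against 7.18 to 75.6. The value of 75.6 is of hypothalamus, which had only 398 private regions, and the next highest was 21.2 in spleen. None of the markers of macrophages (10), skeletal muscle (10) or Schwann cells (6), nor of 15 genes of body position, had an adipose-only region nearest to it. The part that these cells have in the adipose-only regions was not tested. Over all genes, GALNT11 and NFE2L3 had the most, with 4 regions each, but 5 and 6 regions private to skeletal muscle also lay nearest to them.

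Start sites of fat cell genes were mostly open in adipose and in other tissues too. All 14 genes of fat synthesis had a start site peak in both adipose libraries, against 8 to 13 in the other tissues, and 71.6% of all protein-coding genes did. All 19 adipogenic factors did, against 15 to 19, and all 16 receptors, against 14 to 16. Of 10 adipokines 9 did, against 4 to 9, and of 24 lipid droplet genes 17, against 15 to 21. Lymphocyte markers were open in 4 of 10 genes in adipose, against 3 to 10, and macrophage markers in 5 of 10, against 3 to 9. Beside ADIPOQ, the genes with a start site peak in adipose alone were AKNAD1, ANXA2R, IL31, KCNA10, KRT31, KRT33A, MLANA, MPC1L, PRDM2, SRSF7, TMEM121, VWA2 and 10 with a LOC symbol. Several of these are known for other cells, such as the hair keratins KRT31 and KRT33A and the melanocyte antigen MLANA, and the list was not tested for a theme. These names were chosen after their values were seen.

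Most adipose regions were shared with other tissues. In pig, 16833 of the 77367 (21.8%) had a peak in all 14 other libraries, and in cattle 11628 of 43218 (26.9%) had a peak in all 13. The adipose-only regions made up 2.60% (95% Wilson interval 2.49 to 2.71, counting error only) in pig and 1.86% (1.73 to 1.99) in cattle. Just outside the rule, 2059 pig regions had a peak in 1 other library, with a median fold in the weaker adipose animal of 2.61, the same as the adipose-only regions. That library was lung P350 in 460 of them, cerebellum P350 in 269 and lung P348 in 244. Lung was the tissue that shared most, with 73.2% of pig adipose regions open in both lung libraries and 86.5% in cattle. In 3125 pig and 2019 cattle adipose regions, lung was the only other tissue with a peak in all of its libraries. A peak in only part of the libraries of a further tissue was allowed in this count. Lung lists were also among the longest, and the part of list length in this sharing was not tested.

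**Figure D2:**
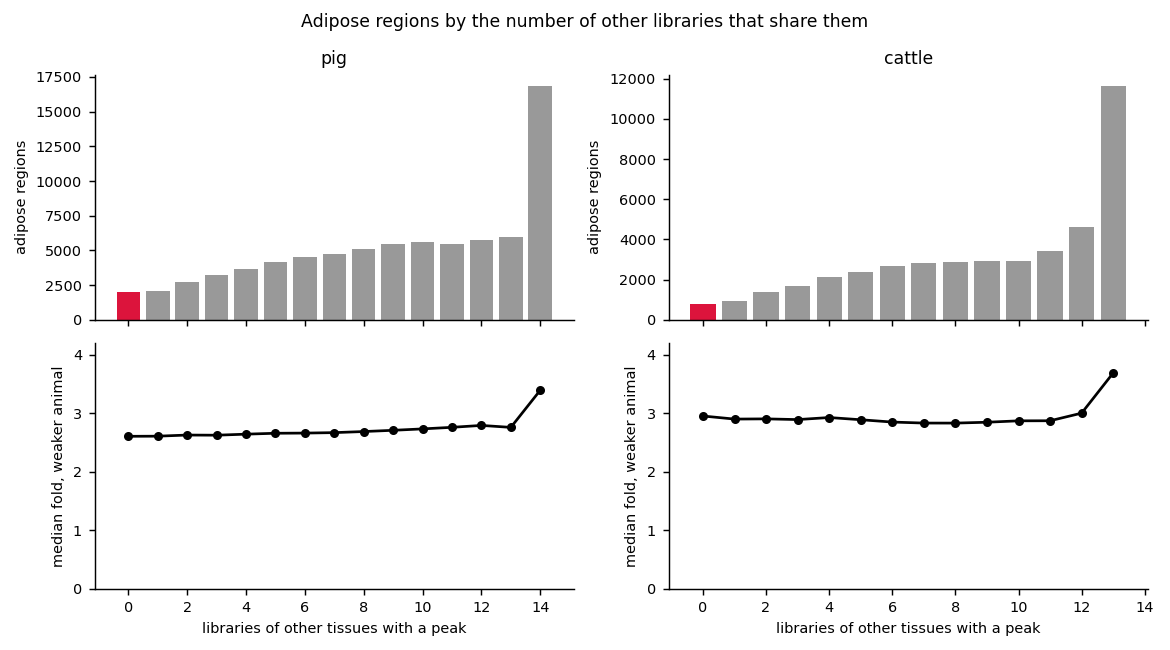
Adipose regions of each species by the number of libraries of other tissues with a peak in them (upper panels, adipose-only regions in red), and the median fold enrichment in the weaker adipose animal (lower panels). The pig median is 2.61 for 0 other libraries and 3.40 for all 14.

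Other tissues mostly had more private regions by the same rule. In pig, cerebellum had 19024, skeletal muscle 10667, cerebral cortex 7716, liver 4177, lung 4111 and spleen 3780, all above the 2009 of adipose, and hypothalamus had 398. In cattle, only hypothalamus, with 28, was below the 803 of adipose. The cattle count for cerebellum, 58894, rests on a single library. These counts have no replicate error, since both animals of a tissue enter each of them. A measure that each library gives alone is the share of its peaks that touched no peak of another tissue, which was 11.4% in P348 adipose and 9.17% in P350, against a range of 4.05 to 30.4% and a median of 9.94% in the other 14 libraries. The adipose values lay inside that range. The difference of means was -1.60 percentage points (exact two-sided permutation test over libraries, p = 0.75, where 0.00833 is the smallest possible). In cattle the shares were 8.26% in M08 and 11.4% in M22, against 5.30 to 27.4% (exact permutation p = 0.714, smallest possible 0.00952).

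**Figure D3:**
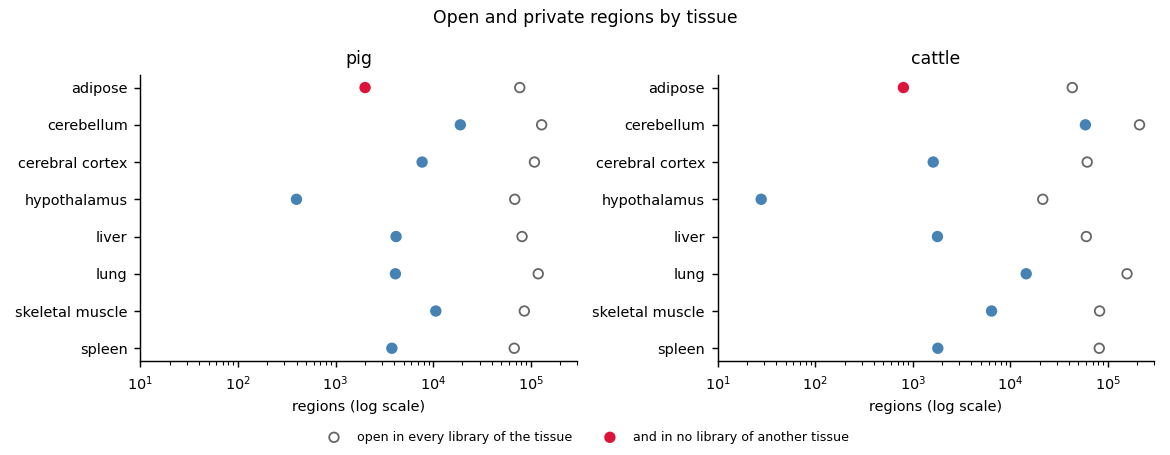
Regions open in every library of a tissue (open circles) and, of these, regions where the other tissues had no peak (filled, adipose in red), per species on a log axis. Adipose has 2009 such regions in pig and 803 in cattle, above hypothalamus and below the other 6 tissues in each species.

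The upper end of fold enrichment in the adipose lists lay below that of the other libraries. The 99th percentile of fold enrichment in a list was 6.18 in P348 and 6.50 in P350, below all 14 other pig libraries, which ranged from 6.84 to 13.5 with a median of 9.73 (exact permutation p = 0.0333). In cattle it was 7.41 in M08 and 5.80 in M22, below all 13 others, which ranged from 7.75 to 13.8 (exact permutation p = 0.00952, the smallest possible). The share of peaks with a q-value under 0.0001 was 13.1% and 11.08% in pig adipose against 11.5 to 74.5% (exact permutation p = 0.0833), and 18.7% and 11.3% in cattle adipose against a lowest of 14.4% and a median of 32.0% (exact permutation p = 0.0762), so this share overlapped with that of other libraries. These 2 measures were chosen after the lists were seen. Adjusted over the 8 measures compared in pig, the percentile had an exact permutation p of 0.222, and over the 7 in cattle one of 0.0667. Neither passed 0.05, but a single measure could not pass it even at the smallest possible p, which the cattle percentile reached. Nothing is concluded from this adjustment, and the test exchanged single libraries, although most tissues gave 2. The median fold of all peaks lay within the range of the other libraries, at 2.73 and 2.93 against 2.72 to 3.98 (difference -0.35, exact permutation p = 0.217), and in cattle at 3.30 and 2.75 against 2.71 to 4.15 (difference -0.41, exact permutation p = 0.267). With all lists of a species cut to equal length the differences were -0.52 in pig (exact permutation p = 0.05) and -1.76 in cattle (exact permutation p = 0.0286).

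**Figure D4:**
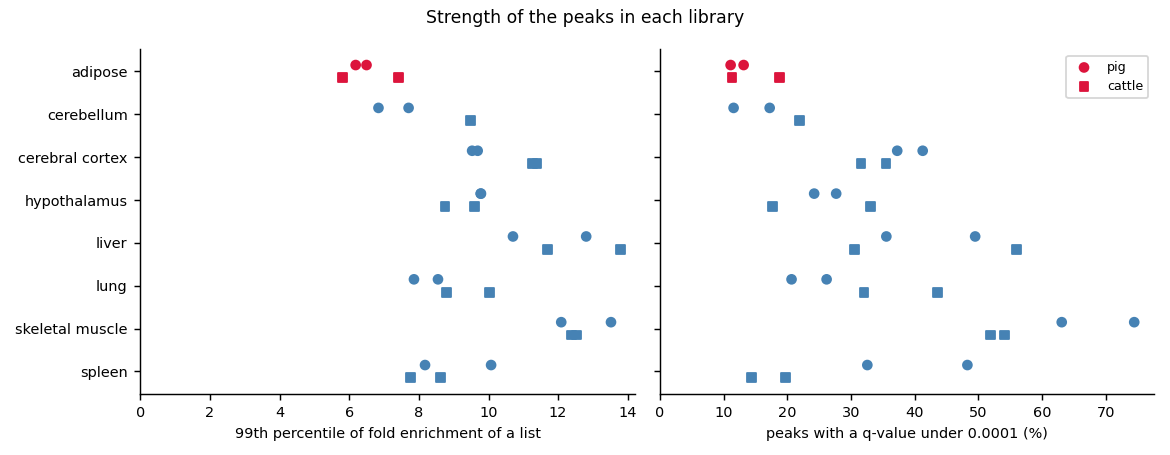
The 99th percentile of fold enrichment (left) and the share of peaks with a q-value under 0.0001 (right) in each peak list, with 1 point per library, circles for pig, squares for cattle and adipose in red. The adipose percentiles, 5.80 to 7.41, lie below those of every other library of the same species.

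The adipose-only regions had low folds and lay mostly away from start sites, and the regions private to other tissues also lay mostly away from them. The median folds of the adipose-only regions were 2.62 in P348 and 2.90 in P350. Their median width was 746 bp (quartiles 480 to 1016), and it cannot be set beside that of shared regions, which are merged from more peaks. Single peaks had a median width of 636 bp in P348 and 598 bp in P350, against 402 to 600 bp in the other 14 lists. The median of the larger of both q-values was 0.0373, and 1441 of the 2009 had a q-value under 0.05 in both pigs, 184 under 0.01 and 6 under 0.0001. The peaks of both pigs shared a median of 245 bp, or 46.9% of the region, and in 150 regions (7.47%) they shared under 10%. TSS-proximal regions, within 2 kb of the start site of a protein-coding gene, made up 4.58% (3.75 to 5.58), while 58.4% lay in gene bodies and 35.6% between genes. The share was 0.503 to 5.19% in the regions private to the other 7 tissues and 5.46% in all regions, while it was 19.5% in all adipose regions and 62.1% in regions open in all tissues. The median distance to a start site was 21022 bp, against 23656 to 186379 bp in the regions private to the other tissues. Repeats made up 30.2% of an adipose-only region on average, against 17.5% in all adipose regions, 40.6% in regions private to cerebellum and 13.5 to 23.9% in those private to the other 6 tissues, and 484 regions (24.1%) were over 50% repeat. Over all peaks of a list, the repeat share of the adipose libraries lay within the range of the others, at 18.7% and 16.1% against 12.5 to 24.5% (exact permutation p = 0.525). The part of repeats in the adipose-only regions was not tested.

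No motif passed the test between the adipose libraries and the others, but a single motif could not have passed it. The share of TSS-distal peaks with a motif in their central 200 bp was compared between the 2 adipose and 14 other pig libraries for 15 motifs, and 0 passed an adjusted p of 0.05 in an exact permutation test with Benjamini-Hochberg adjustment, with 1 at an unadjusted p under 0.05. That was the steroid receptor motif, at 5.02% in P348 and 4.57% in P350 against 4.75 to 5.87% (exact permutation p = 0.0167, adjusted 0.25). Even at the smallest possible exact permutation p of 0.00833, a motif alone would not pass the adjustment over 15 motifs. Nothing is therefore concluded from the 0 that passed. The C/EBP motif was at 7.37% and 6.43% against 6.61 to 10.5% (exact permutation p = 0.075, adjusted 0.3). The motif of PPARG with its partner RXR, searched as a pair of AGGNCA 1 base apart, was at 0.313% and 0.366% against 0.208 to 0.487% (exact permutation p = 0.558, adjusted 0.761). The EBF motif was at 1.01% and 1.25% against 0.729 to 1.24% (exact permutation p = 0.1, adjusted 0.3). In the 1917 TSS-distal adipose-only regions, 6.73% (5.69 to 7.94) held the C/EBP motif against 8.76% of all TSS-distal regions, 0.678% the EBF motif against 0.681%, 9.55% the NFI motif against 12.2%, and 17.1% the MYOD E-box against 14.6%. These windows also differed in composition, with 50.9% GC in the adipose-only regions and 48.0% in all, and the part of composition in the motif shares was not tested.

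Gene windows asked whether a gene and 10 kb either side held more peak sequence in adipose. The value was peak bases in the window per Mb of peaks in the list, compared as adipose minus the mean of the 7 other tissues on the log2(value + 1) scale, which understates changes of low genes. Of 19414 genes tested, 197 were higher (1.01%) and 143 lower (0.737%) at an adjusted p under 0.05 with limma, and the median difference over all genes was 0.21, so differences are read against that shift. Both adipose libraries were above all 14 others in 496 genes (2.55%) and below all in 72 (0.371%). The calls rest heavily on both libraries and on the fit. Without P350 limma called 1 gene higher and 5 lower, without P348 39 and 122, and with all other libraries as 1 group it called 0 and 0, with 805 genes at an unadjusted p under 0.05.

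Of all genes tested, 1.01% were called higher and 0.737% lower, and the calls in the 5 fat cell lists lay near that share. FABP4, the fatty acid carrier of fat cells, was the single member of these lists called in either direction. Its window held 13.1 peak bases per Mb in P348 and 9.70 in P350, while the other 14 libraries ranged from 0 to 26.8 with a median of 0. Spleen P350 was above both adipose libraries, spleen P348 lay between them at 11.5, and the other 12 libraries were at 4.52 or lower. The log2 difference was 2.61 ± 0.46 (SE; limma, adjusted p = 0.022), and it turned to -0.82 when peaks were limited to q-values under 0.0001.

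**Figure D5:**
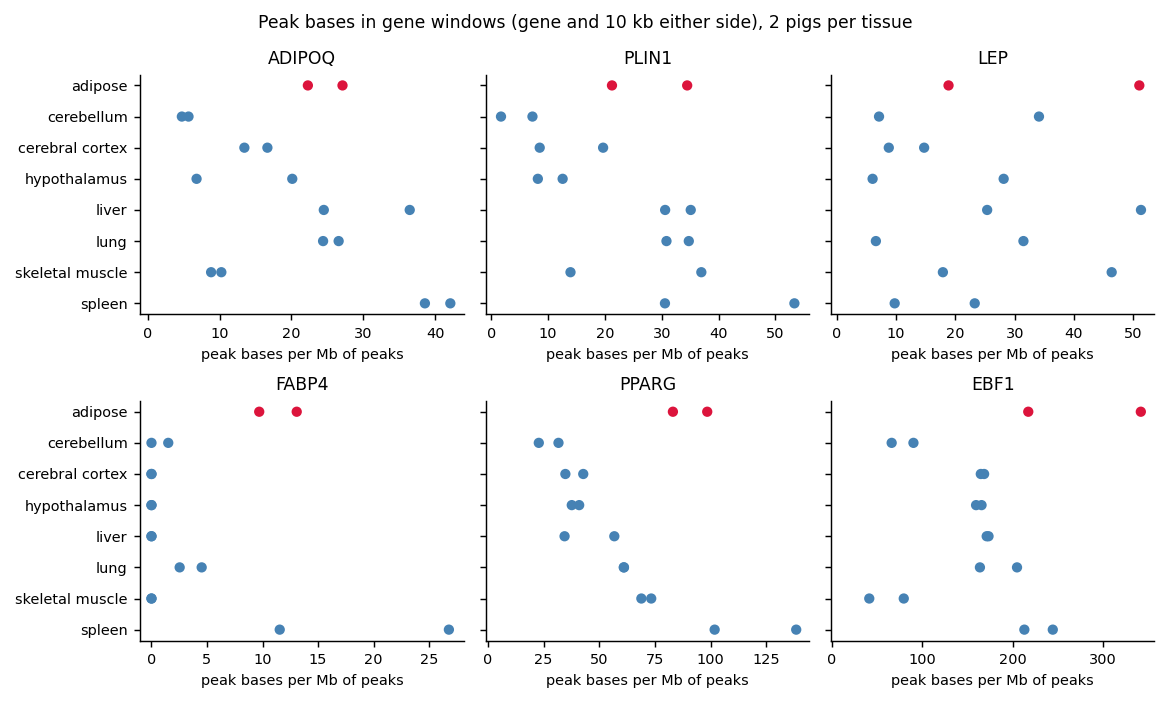
Peak bases per Mb of peaks in the windows of 6 fat cell genes (gene and 10 kb either side), with 1 point per pig library and adipose in red. The FABP4 window holds peaks in adipose, spleen, lung and 1 cerebellum library, and among the other 5 genes the adipose points overlap those of other tissues, apart from EBF1 in P348, at 342.

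The windows of the 3 marker genes did not pass the test. ADIPOQ held 27.1 and 22.3 in adipose against 4.77 to 42.1 in the other libraries, with spleen highest (log2 difference 0.57 ± 0.33, limma adjusted p = 0.356). PLIN1 held 34.5 and 21.2 against 1.70 to 53.3 (0.58 ± 0.46, limma adjusted p = 0.490). LEP held 51.0 and 18.8 against 6.02 to 51.3 (0.77 ± 0.70, limma adjusted p = 0.555). The groups overlapped in all 3 genes. Of the factors, EBF1 held 342 and 217 against 41.4 to 244 (1.00 ± 0.24, limma adjusted p = 0.056) and PPARG 98.5 and 83.1 against 22.9 to 138 (0.80 ± 0.22, limma adjusted p = 0.081), and neither passed the test. For PPARG both spleen libraries were above adipose, and for EBF1 P348 was above all others.

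Few members of any list passed the test, and few of all genes did (1.01% higher and 0.737% lower). The median difference was 0.30 over 24 lipid droplet genes, 0.26 over 14 of fat synthesis, 0.55 over 10 adipokines, 0.30 over 19 adipogenic factors and 0.10 over 16 receptors, against 0.21 over all genes, with 1, 0, 0, 0 and 0 called higher and 0 called lower. Heat production genes had a median of 0.03 with 0 called. Of progenitor and fibroblast genes, 0 were called, and PI16, a marker of fat progenitors, was above all 14 other libraries (37.7 and 39.1 against 0 to 33.6, limma adjusted p = 0.328). Markers of endothelium, smooth muscle, macrophages, lymphocytes, skeletal muscle and mesothelium had 0 calls, and medians ran from 0.02 for skeletal muscle to 0.66 for mesothelium. The genes of body position had 0 calls and a median of 0.34. Lower in adipose was TP63, a factor of stratified epithelium (26.1 and 27.8 against 45.1 to 279; -1.71 ± 0.24, limma adjusted p = 0.008), among 9 keratinocyte markers tested.

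The genes with the largest called differences were mostly not known for fat. Of those above all 14 others, CD209, a lectin of dendritic cells and macrophages, held 28.2 and 33.0 against 0 to 22.4 (4.01 ± 0.38, limma adjusted p = 0.00138). NLRP12, an inhibitory sensor of myeloid cells, held 44.6 and 30.2 against 0 to 13.98 (4.02 ± 0.55), and UTS2, a vasoactive peptide, held 24.9 and 48.2 against 0 to 15.5. The other 7 of the 10 had LOC symbols, with LOC110261315 and LOC110261311 neighbours on chromosome 6 that shared the same peaks. Lung was the highest other library for CD209 and NLRP12, while the list of macrophage markers had 0 calls. Of those below all 14 others, C15H2orf54 was lowest at 1.60 and 0 against 1.95 to 45.7 (-3.77 ± 0.50, limma adjusted p = 0.00732). CALCRL, a receptor of vessels, held 3.01 in both animals against 4.82 to 47.3 (-2.38 ± 0.37), and the others were SAMSN1, TMCO5A, XK, FOXJ1, EDN2, POU4F3, S100A9 and SAMD14.

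In cattle, the 803 adipose-only regions had a median width of 542 bp (quartiles 350 to 878) and median folds of 3.36 in M08 and 2.98 in M22. In 47 of them both animals reached a fold of 4. The 5 strongest lay at chr16:34662127-34662501 (folds 6.66 and 5.50), chr5:48143733-48144174 (5.29 and 5.76), chr7:55842455-55842802 (5.23 and 7.38), chr14:42501033-42501636 (5.28 and 5.20) and chr3:69692901-69693271 (8.05 and 5.04) of ARS-UCD1.2. Genes near the cattle regions were not analysed here. Lists of the cattle adipose libraries differed in length, with 62000 peaks in M08 and 140106 in M22, and with all lists cut to their best 37204 peaks 2855 regions were adipose-only.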

How the data were processed

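ATAC-seq libraries from cryopreserved nuclei of 8 tissues were analysed as deposited peak lists. The authors trimmed reads with Trim Galore 0.4.5, aligned them with BWA 0.7.17 to susScr11 (Sscrofa11.1) or ARS-UCD1.2, filtered them with SAMtools 1.10 and Picard 2.18.17, and called broad peaks per library with MACS2. The deposited lists give each peak a score, a fold enrichment (a ratio of pileup to background), a −log10 p-value and a −log10 q-value, all by the authors' peak caller. The methods name a q limit of 0.05, but listed q-values reach 0.1, and all listed peaks were used. Total peaks were 2324050 in pig and 1943899 in cattle.

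Peaks of a species were merged when sharing 1 bp. Pig regions were annotated with the RefSeq annotation of Sscrofa11.1 (20394 protein-coding genes, TSS within 2000 bp), whose sequence names all matched. Library measures and motif shares were compared with exact two-sided permutation tests over libraries. Gene windows (10 kb flanks, pseudocount 1, mean of at least 1 peak base per Mb) were fitted with limma 3.58.1 in R 4.3.3 over all 16 pig libraries with 1 mean per tissue, and p-values were adjusted by Benjamini-Hochberg. Python 3.11.15, pandas 2.3.3 and scipy 1.17.1 did the rest, and the steps were tested on simulated data. With 2 animals per species, no p-value reaches beyond these animals. The permutation tests exchange single libraries and ignore that libraries come in pairs of the same tissue, so their p-values can be too small. The limma p-values measure the spread between the 2 animals within a tissue, not the spread among tissues.

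Named were genes of the 17 lists, the 10 largest called differences in each direction with both adipose libraries beyond all others, genes with the most adipose-only regions nearest, the 10 strongest pig and 5 strongest cattle adipose-only regions, and the strongest region of each fat cell gene that had one. The members and lists were chosen with earlier results of these data known. KRT14 and MSLN had no entry in the annotation used. The gene window result of 1 gene list is not reported here. Libraries with the same animal number come from the same animal, which gives the pairing, and the correlation of their deviations from tissue means ran from -0.167 to 0.123. Alternatives covered q limits, list length, merging, windows, pseudocounts, filters, fits and left-out libraries, and 5 were chosen after seeing the data.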

Additional observations from a re-analysis of the deposited data

How the results depend on the processing

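The count of adipose-only regions depends on the rule and on the peak limit. In pig, 2009 became 665 with peaks at a q-value under 0.01, 34 under 0.0001, 8133 when single peaks in other tissues were allowed, 5342 when the weaker adipose fold only had to exceed every other library, and 15584 to 31182 within 1 animal. In cattle, 803 became 470, 169, 2453, 2347 and 10476 to 21850 in the same order, and 2855 with lists of equal length. The rule on folds was chosen after seeing the data. The TSS-proximal share of 4.58% became 1.44% within 500 bp, 5.88% at a q-value under 0.0001 and 3.58% when single peaks in other tissues were allowed. Chosen after seeing the data, leaving out the cerebellum gave 2609 and 973 regions, a q limit of 0.05 gave 1920 and 657, and leaving out regions over 50% repeat gave 1525 in pig. The private share of peaks differed by 0.0632 percentage points in pig when 50% of a peak had to be covered, and by -2.71 to -0.490 without 1 adipose library. In cattle it differed by 8.07 with lists of equal length and by -2.85 to 0.294 without 1 adipose library. The difference in other library measures changed sign in pig for the number of peaks (-30115 to 17905 without 1 adipose library) and the TSS-proximal share (-0.432 at equal length, -1.60 to 1.68 without 1 adipose library). In cattle it changed sign for the number of peaks (-71984 to 6122 without 1 adipose library) and median width (-1.81 at equal length, -3.08 to 88.9 without 1 adipose library). The sign changes at equal length did not pass an exact permutation test. With 1 adipose library left, that test sets a single library against the others and could not reach 0.05. Nothing is therefore concluded from those sign changes. Other settings gave an unadjusted exact permutation p under 0.05 in pig. At a q-value under 0.0001 the TSS-proximal share differed by 21.9 (exact permutation p = 0.0167), the number of peaks by -31357 (exact permutation p = 0.025) and median width by 277 bp (exact permutation p = 0.00833). At equal length median width differed by 125 bp (exact permutation p = 0.025). These p-values were not adjusted over the measures and settings compared, and nothing is concluded from them.

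Motif differences that changed sign were AP-1 (1.45), T-box (-0.139) and CTCF (0.474) at a q-value under 0.0001, the MYOD E-box with 400 bp (1.14), and, without 1 adipose library, the MYOD E-box (-0.813 to 0.125), LXR-RXR (-0.0232 to 0.0271), TEAD (-0.591 to 0.0741) and ETS (-0.0738 to 0.565). Genes called higher numbered 489 with a pseudocount of 5, 297 without a filter, 117 with a mean of at least 5, 124 in TSS windows, 317 at equal length, 4419 at a q-value under 0.0001, 0 with 2 groups and 1 to 39 without 1 adipose library. Genes called lower numbered 229 without a filter, 220 at equal length, 3767 at a q-value under 0.0001, 0 with 2 groups, 5 to 122 without 1 adipose library and 289 without cerebellum, a setting chosen after seeing the data. The share of calls that were higher was 57.9%, and 40.7% in TSS windows, 69.7% with a pseudocount of 5 and 42.3% without cerebellum. With the animal as a replicate block, limma called 146 higher and 107 lower, of which 139 of the higher were among the 197, against 58 of 228 with 50 kb windows, 16 of 124 in TSS windows, 99 of 317 at equal length and 52 of 4419 at a q-value under 0.0001, and the block moved no count by over 1.5 times. In the paired permutation within animals, the private share had an exact p of 0.766 in pig and 0.696 in cattle. At a q-value under 0.0001 the log2 difference became -1.35 for LOC110261289, -0.54 for UTS2, -4.99 for PLIN1, -0.78 for LEP, -0.82 for FABP4, -2.23 for HCAR1, -1.02 for RETN and -2.73 for CD3E. It became -0.16 for PLIN1 at equal length, 0.22 for S100A9 with 50 kb windows and -0.90 for CD3E in TSS windows. The causes were not tested. Read totals were not used here, and low folds limit most adipose-only regions.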

Other observations

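A second description, chosen after seeing the data, took regions whose weaker adipose fold was above that of every other library, whether or not others had a peak. There were 5342 in pig, against 4640 to 34687 by the same rule in the other tissues. Of the 5342, 149 had a fold of at least 4 in both pigs, fewer than in every other tissue (1515 to 22951). In cattle there were 2347, against 404 to 91478, and 406 had such a fold, against 102 to 16959. The cattle count of 91478 is of cerebellum and rests on a single library. These values describe the rule, which used the same peaks. The strongest one nearest to a listed gene lay 20439 bp from ACSL1, which activates fatty acids (chr15:45956766-45957807, folds 5.23 in P348 and 5.13 in P350, highest other fold 4.34). Near the matrix gene LUM the folds were 6.37 and 4.54 (highest other 4.26), near COL1A2 4.77 and 4.27 (3.58), and near DPP4, a marker of fat progenitors, 4.16 and 4.19 (3.12). Within an intron of CAV1, the caveolin of fat cells and endothelium, they were 4.39 and 3.70 (3.15). Near LEP they were 2.50 and 2.93, with 1 other library at 2.37, among the weakest of the regions nearest to a listed gene. These genes are picked examples. Stronger regions than that of LEP also lay nearest to DIO2 (3.83 and 4.12), TP63 (3.67 and 4.07) and the macrophage marker MSR1 (3.51 and 3.67). The share of all genes with such a region was not computed.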
